A study of Mus musculus with 10 samples.

Results

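The 4 libraries described here are RiboMeth-seq libraries of mouse induced neurons that received a non-targeting antisense oligonucleotide (ASO), out of 10 libraries in the series. They were chosen by their labels: 2 served as controls of the Snord101 knockdown (Snord101-set controls A and B) and 2 as controls of the Snord89 knockdown (Snord89-set controls A and B). All 4 came from embryonic stem cells in which 1 ug/mL doxycycline switched on Ngn2, a transcription factor that drives neuronal differentiation, and all took up the ASO at 10 uM from the medium for 72 to 96 hours. The labels give both control groups the same treatment and call the libraries biological replicates. They name no sequence for the non-targeting ASO and do not say whether the sets shared cultures. The other 6 libraries are 4 knockdown neuron libraries and 2 stem cell libraries. Neuron identity could not be checked, because the tables hold positions of the 45S pre-rRNA and, in the Snord89 table, of U2 small nuclear RNA, which is not described here, and no messenger RNA.

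The 45S pre-rRNA is cut into 18S, 5.8S and 28S rRNA, and external and internal spacers are removed. Box C/D small nucleolar RNAs (snoRNAs) pair with the rRNA and guide fibrillarin, the methyltransferase of the particle, to the ribose of single nucleotides. In RiboMeth-seq the RNA is partly hydrolysed with alkali. A 2′-O-methyl group protects the adjoining bond, so a methylated position shows few read ends beside its neighbours. The score used here divides a position's ends by a weighted mean of the ends at its 6 neighbours on each side and takes that ratio from 1, with 0 as its floor. A score near 1 means few ends relative to the neighbours, and a peak of ends close by also gives a high score.

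On the 45S pre-rRNA the libraries held 137064219 (A) and 143176321 (B) ends in the Snord101-set controls and 94428078 (A) and 90051531 (B) in the Snord89-set controls. Positions with a flanking mean of at least 100 ends in each library numbered 9216 of 13400, and the account below covers these. Spacers took 0.830% to 0.940% of the ends. The 28S segment took 65.3% and 63.2% in the Snord101-set controls and 61.1% and 63.1% in the Snord89-set controls. Snord101-set control A stood apart in its scores, with a mean of 0.235 over the covered positions against 0.198, 0.194 and 0.203 in Snord101-set control B and Snord89-set controls A and B.

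Every position fell into 1 of 4 classes. A score of at least 0.9 in all 4 libraries (full) was found at 127 positions, or 1.38%. A score of at least 0.5 in all 4, but under 0.9 in some (partial), was found at 713 positions, or 7.74%. At 1110 positions, or 12.0%, the score was at least 0.5 in some libraries and under 0.5 in others (unstable). The remaining 7266 stayed under 0.5 throughout. The classes were set by these scores, so their levels are a description. Just inside the limit for full positions, the lowest of the 4 scores was 0.903 at 45S 8507 and 0.904 at 45S 4022, and just outside it was 0.890 at 45S 10301 and 0.887 at 45S 11814.

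Full positions lay mostly inside the rRNA segments, as single nucleotides. The segments were delimited by the density of ends, so their edges need not be the exact ends of the mature rRNAs. The 28S segment, for example, begins at 45S 8112, before the peak of ends at 45S 8122. There were 37 full positions in the 18S segment, 5 in 5.8S, 64 in 28S and 21 in the spacers. Of the 127, 90 had no full neighbour, and 99 lay more than 12 nucleotides from the edge of an rRNA segment, 35 of these in 18S, 1 in 5.8S, 58 in 28S and 5 in the spacers. The 94 of these in rRNA had a median range of 0.00724 over the 4 libraries. Their strongest neighbour held a median 16.6% of the weighted flanking ends, close to the 17.6% of all covered positions. At the 28 full positions within 12 nucleotides of an edge that median was 86.8%. Such edges lie near the starts and ends of the mature rRNAs, which were not checked by sequence. The 4 runs of 4 or more full positions were 45S 644 to 648 in the 5′ external spacer, 4000 to 4005 before 18S, 6865 to 6868 before 5.8S and 12836 to 12841 at the end of 28S. In these 4 runs the strongest neighbour held 38.2% to 98.3% of the weighted flanking ends, and its part in the high scores was not tested.

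The full positions of 18S were set beside 41 sites known to be methylated in human 18S rRNA, a list written from general knowledge with human snoRNA names. Each site number was first added to the position of the peak of ends at the 18S start, 45S 4006. With that placement 1 of 41 sites scored at least 0.75 in all 4 libraries. At 1 nucleotide further along 19 did, and at 2 nucleotides further 18 did. The mean score over the 41 sites was 0.550 and 0.516 at these distances, against 0.113 to 0.197 at the other distances within 6 nucleotides and 0.195 over the whole segment. The sites at 2 nucleotides form a single block: 20 consecutive sites, from 45S 4362 to 5039, scored at least 0.5 in all libraries there. The other 21 lie before and after the block and were read at 1 nucleotide. This placement was chosen after the scores were seen, and no sequence was used here to check it.

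**Figure D1:**
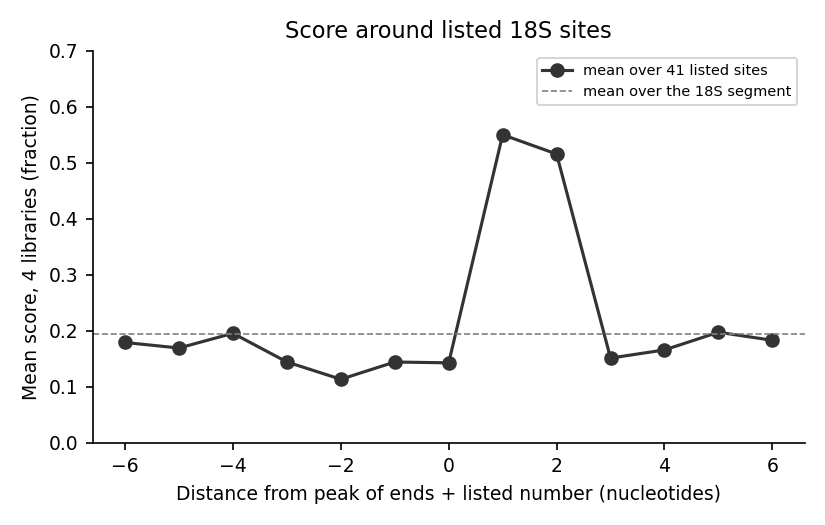
Mean score of the 4 control libraries (vertical axis, fraction) by distance in nucleotides from the peak of ends plus the listed site number (horizontal axis), averaged over 41 listed 18S sites; the dashed line is the mean over the 18S segment, 0.195. The mean rises at distances 1 and 2, to 0.550 and 0.516.

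So placed, 33 of the 41 listed 18S sites were full, 6 were partial and 2 stayed under 0.5. The same 33 made up all but 4 of the 37 full 18S positions. The 4 others were 45S 4022, 45S 4053, 45S 5857 and 45S 5858, the last pair near the end of the segment. The site of SNORD27 at 45S 4034 had the scores 0.998 and 0.997 in the Snord101-set controls and 0.998 and 0.997 in the Snord89-set controls. Only 9 and 20 ends fell on it in the Snord101-set controls, and 7 and 9 in the Snord89-set controls, where the flanking means ran from 2902 to 5821. The site of SNORD25 at 45S 5497 was as even, at 0.997, 0.997, 0.997 and 0.997. The site of SNORD14, a snoRNA also needed for processing of the 18S precursor, scored 0.991, 0.986, 0.991 and 0.992 at 45S 4470. All of these sites were near the ceiling of the score in every library, and the sets overlapped or differed by less than 0.01.

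The partial sites of the list were those of SNORD90, SNORD68, SNORD100, SNORD98, SNORD61 and SNORD127. At the SNORD90 site, 45S 4362, the score was 0.907 and 0.897 in the Snord101-set controls against 0.7498 and 0.646 in the Snord89-set controls (edgeR adjusted p = 0.0255 over all 9216 positions). The SNORD127 site, 45S 5454, had 0.699 and 0.678 against 0.551 and 0.558 (edgeR adjusted p = 0.0223). At the SNORD98 site, 45S 4875, the values were 0.894 and 0.860 against 0.780 and 0.771 (edgeR adjusted p = 0.0403). The SNORD61 site, 45S 5449, had 0.889 and 0.897 against 0.825 and 0.817 (edgeR adjusted p = 0.0219). These 4 sites were lower in both Snord89-set controls than in both Snord101-set controls, whereas the sets overlapped at the other 2. Of all 9216 positions 13.5% passed this test, 18.4% in 18S, and the scores of the sets did not overlap at 41.4%. Among the 124 partial positions of 18S, the sets did not overlap at 82, and 16.1% passed the test. The SNORD100 site, 45S 4444, scored 0.852, 0.842, 0.839 and 0.849 and was among the 5 partial positions with the smallest range. The SNORD68 site, 45S 4436, scored 0.723 and 0.818 against 0.844 and 0.807 (edgeR adjusted p = 0.330).

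Of the 41 listed sites, 3 stayed under 0.75 in all 4 libraries. One is the SNORD127 site above. At the SNORD66 site, 45S 5279, the score was 0.452 and 0.442 in the Snord101-set controls and 0.358 and 0.378 in the Snord89-set controls (edgeR adjusted p = 0.0736). The third, at 45S 5675 with no guide listed, scored 0 in all 4. In 5.8S rRNA the site count started from the peak at 45S 6876 without a shift. The listed guanosine at 45S 6951 was full, with 0.991, 0.990, 0.990 and 0.989. The listed uridine at 45S 6890 was partial, with 0.797, 0.742, 0.785 and 0.786.

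**Figure D2:**
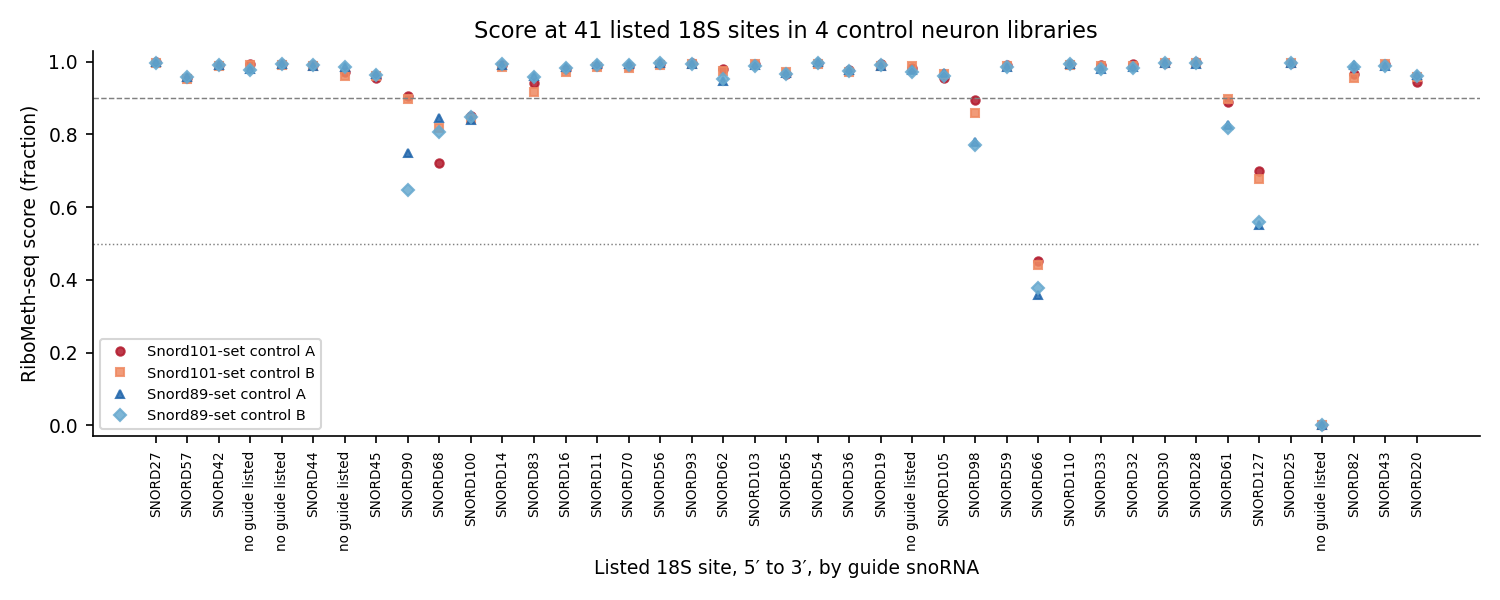
Score (vertical axis, fraction) at the 41 listed 18S sites in 5′ to 3′ order (horizontal axis, named by the guide snoRNA) in each of the 4 control libraries; dashed and dotted lines mark 0.9 and 0.5. At 33 sites all 4 points lie above 0.9, and the SNORD90, SNORD98, SNORD61 and SNORD127 sites are lower in both Snord89-set controls.

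The 28S rRNA, which carries the peptidyl transferase centre of the large subunit, held its full positions at uneven distances. The 58 away from the edges ran from 45S 8507 to 12411 with a median spacing of 20 nucleotides, against 18 for the 35 of 18S. The 100-position window with the most, 8, began at 45S 11512, and the longest stretch with none was 599 nucleotides, from 45S 10751 to 11350, against 289 in 18S. Adjacent full positions were found at 45S 10240 to 10242, at 12001 and 12002 and at 12272 and 12273. The position with the highest minimum, 45S 9795, scored 0.996, 0.994, 0.997 and 0.996. The lowest full positions of 28S were 45S 8507, at 0.922, 0.905, 0.903 and 0.913, 45S 10751, at 0.932, 0.906, 0.919 and 0.916, and 45S 11647, at 0.923, 0.913, 0.920 and 0.915. The sets overlapped at each of these 3. Among the 94, 45S 11405 had the largest fall under the Snord101 ASO, with a score of 0 in both knockdown libraries. The controls scored 0.984 and 0.975 in the Snord101 set and 0.990 and 0.989 in the Snord89 set there. Both Snord89-set controls were higher at 45S 11405, without passing the test (edgeR adjusted p = 0.0835, log2 end ratio -0.92, SE 0.25).

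The control sets were compared position by position to ask how far the same labelled treatment gives the same footprint in separate sets. Each set has its own table, so set and table cannot be told apart, and the labels do not say whether the sets shared a batch. End counts were tested by edgeR's quasi-likelihood test, with the flanking mean as offset. Of 9216 positions, 1246 passed a Benjamini-Hochberg adjusted p of 0.05, which is 13.5%. Snord89-set controls had relatively more ends, thus less protection, at 723 (7.85%) and more protection at 523 (5.67%). When ends were scaled by library size (TMM) in place of the flanking mean, which tests the share of ends and not protection, the numbers became 1062 and 1432. The median absolute log2 end ratio was 0.50 at called positions and 0.19 over all tested. Without either Snord89-set control, edgeR passed 0 positions, with 1377 at an unadjusted p under 0.05 when A was left out and 1543 when B was, so no call was made without both of these libraries. All 1246 kept their direction in both fits. In these fits the lone library of a set is assumed to vary as the other set does. Without Snord101-set control A the count was 1537, and without Snord101-set control B it was 2442.

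Called positions were spread over the classes. Of the 1246, 891 lay at positions under 0.5 in every library, a class that held 78.8% of all covered positions. Among these, 360 scored 0 in all 4, where the score cannot register a difference. The share called was 24.4% of full positions (31), 15.0% of partial (107), 19.5% of unstable (217) and 12.3% of the rest. By region, delimited by the density of ends, it was 18.4% in 18S, 34.7% in 5.8S and 15.4% in 28S. It was 3.66% in the 5′ external spacer and 3.08% and 8.92% in the first and second internal spacers. For the 3′ external spacer it was 83.3% (5 of 6), and its covered positions lie next to the end of the 28S segment.

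Differences in score at full positions are small by rule, since scores from 0.9 to 1 in all libraries keep the set means within 0.1. The largest was 0.0597, at 45S 5873, just past the end of the 18S segment. Among the 94 full rRNA positions away from edges, 14 were called (14.9%, against 13.5% of all positions). Of these, 11 had less and 3 more protection in the Snord89-set controls. Over all 94 the median absolute set difference was 0.00413 and the largest was 0.0353, at 45S 10129, which was not called. At 45S 5398, the SNORD28 site, 54 and 96 ends in the Snord101-set controls and 154 and 127 in the Snord89-set controls gave scores of 0.998 and 0.997 against 0.995 and 0.995 (edgeR adjusted p = 0.0393, log2 end ratio 1.00, SE 0.18). At 45S 5685, the SNORD82 site, the score was higher in the Snord89-set controls, at 0.990 and 0.986 against 0.966 and 0.956 (edgeR adjusted p = 0.0302). The sets did not overlap at either site, and both remained above 0.95 in each library. Of the 33 full listed 18S sites 7 were called, 5 lower and 2 higher in the Snord89-set controls, and of the 6 partial ones 4 were called, all lower. Over the whole 18S segment 18.4% of positions were called, 177 with less and 164 with more protection in the Snord89-set controls. Of all partial 18S positions 16.1% were called, 11 lower and 9 higher.

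**Figure D3:**
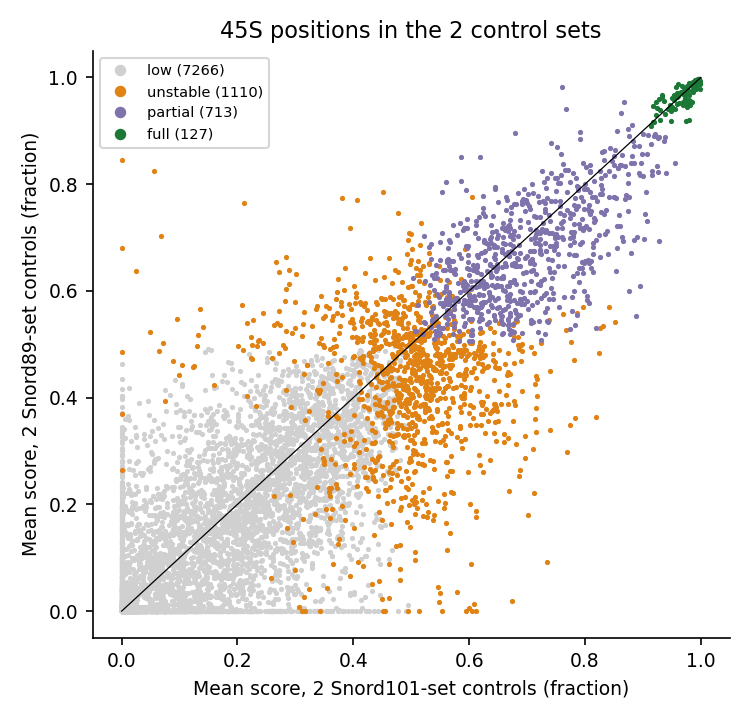
Mean score of the Snord101-set controls (horizontal axis, fraction) against that of the Snord89-set controls (vertical axis, fraction) for 9216 positions, coloured by class with the number in each; the line marks equality. By the class rules the 127 full positions must lie close to the line, and the 1110 unstable ones were picked for varying.

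The median absolute log2 end ratio between the sets was 0.54 at full, 0.27 at partial and 0.34 at unstable positions. In score, which has little room to move near 1, the median absolute differences were 0.00588, 0.0556 and 0.129. Among 1950 positions with a score of at least 0.5 in some library, 726 (37.2%) had set means at least 0.1 apart and no overlap between the sets. The Snord89-set controls were lower at 531 (27.2%) and higher at 195 (10%). Without Snord101-set control A these numbers were 354 and 322, and without Snord101-set control B they were 802 and 178. The excess of lower scores thus moved with Snord101-set control A, whose mean score was the highest.

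The 10 called positions with the largest set differences in score fell into 4 within 12 nucleotides of an rRNA segment edge, 2 elsewhere in the spacers and 4 inside 28S. At 45S 649 in the 5′ external spacer, near which mouse pre-rRNA is known to be cut early, the score was 0.747 and 0.723 in the Snord101-set controls and 0.117 and 0.0675 in the Snord89-set controls (edgeR adjusted p = 0.0128, log2 end ratio 1.77, SE 0.10). Its own ends were 1315 and 2042 against 2488 and 2221. The neighbour at 45S 651 had 16046 and 25169 ends against 11913 and 9855. These are raw ends, not scaled for depth. Relative to their flanks both had more ends in the Snord89-set controls, the neighbour 45S 651 by less (edgeR adjusted p = 0.0273, log2 end ratio 0.59). At 45S 5860, near the end of 18S, the score was 0 and 0 against 0.683 and 0.676 (edgeR adjusted p = 0.0128, log2 end ratio -1.77, SE 0.11). Its neighbour at 45S 5855 had 11618 and 15841 ends in the Snord101-set controls and 41869 and 32212 in the less deeply sequenced Snord89-set controls. At 45S 5861, with the same neighbour, the scores were 0.0507 and 0 against 0.642 and 0.633. At 45S 5872 they were 0.675 and 0.673 against 0 and 0.0387, and at 45S 8114, at the start of the 28S segment, 0.591 and 0.627 against 0.0250 and 0.

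The peaks of ends at the rRNA starts themselves took a larger share of the Snord101-set controls. At the 28S start, 45S 8122, the share was 1.18% and 1.30% against 0.795% and 0.637%. At the 5.8S start it was 0.472% and 0.512% against 0.417% and 0.355%, and at the 18S start 0.0643% and 0.0837% against 0.0573% and 0.0389%. The sets did not overlap at any of the 3, although an exact permutation test of 2 libraries against 2 cannot go below p = 0.333. Separation of the sets was common: their shares of ends did not overlap in 28 of 47 windows along 28S (59.6%), described below. Their scores did not overlap at 41.4% of the 9216 positions. Non-overlap of end shares was not counted over all single positions, so the 3 peaks cannot be called unusual. The part of these peaks in the scores beside them was not tested.

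Of those inside 28S, 45S 11061 had the largest difference. There the score was 0 in both Snord101-set controls and 0.878 and 0.811 in the Snord89-set controls (edgeR adjusted p = 0.0195, log2 end ratio -3.34, SE 0.33). Ends at it were 15893 and 5151 against 121 and 270, and the flanking mean was 8212 and 4136 against 988 and 1432. At 45S 12306 the scores were 0.0815 and 0.0536 against 0.711 and 0.696. The reverse was seen at 45S 11919, with 0.708 and 0.517 against 0 and 0, at 45S 11531, with 0.617 and 0.572 against 0 and 0, and at 45S 7149 in the second internal spacer, with 0.575 and 0.636 against 0 and 0. All 10 were unstable, which their selection fixed, as set means more than 0.5 apart cannot occur at full or partial positions. When either Snord89-set control was left out, their log2 end ratios stayed at 0.872 to 1.11 times the values with all libraries. The ratios depended more on the neighbours used. With a window of 2 positions 7 of the 10 moved by over 1.5 times and 4 lost the call, among them 45S 5860 (log2 -0.36), 45S 5861 (-0.31) and 45S 7149 (0.30). With the flanking median 45S 7149 fell to 0.06 and lost the call.

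The scores of the sets did not overlap at 692 of the 1110 unstable positions (62.3%) and at 71.7% of full and 63.5% of partial positions. At positions under 0.5 throughout the share was 35.5%, but those at the floor of 0 in all libraries cannot be counted as separate. At 325 (29.3%) the limit of 0.5 itself split the sets, with both libraries of 1 set reaching it and both of the other not: the Snord101-set controls were above at 226 and the Snord89-set controls at 99. At 108 positions 1 library of each set reached 0.5. At 677 a single library stood alone, and at 362 of these Snord101-set control A was the 1 library at or above 0.5. The next highest number was 86, where Snord101-set control B alone was below. With Snord101-set control A left out, 733 positions were unstable. The median range over the 4 libraries was 0.239 and the median counting error of a score, from the square root of its ends, was 0.0126. Counting error treats each end as an independent molecule, and these positions were chosen for varying. In the spacers the counting error was larger, with a median of 0.0523.

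Of the 10 unstable positions with the widest ranges, 45S 5860 was the only one in 18S, and the others lay in 28S and the spacers. At 45S 10127 the score was 0 and 0.111 in the Snord101-set controls and 0.927 and 0.723 in the Snord89-set controls, without passing the test (edgeR adjusted p = 0.0628). Ends there were 1969 and 954 against 19 and 117. At 45S 11035 the scores were 0.801 and 0.602 against 0.0546 and 0.307, and at 45S 7141 they were 0.498 and 0.701 against 0.0119 and 0. Libraries of 1 set also differed widely at the spacer positions 45S 5879 and 45S 2873. At 45S 5879 the scores were 0 and 0.698 in the Snord101-set controls and 0.561 and 0 in the Snord89-set controls. At 45S 2873 they were 0 and 0.695, and 0.494 and 0.0809. At 45S 2241 Snord101-set control A had 0 and the others 0.579, 0.701 and 0.580. Partial positions also had a steady side: 45S 12205 in 28S scored 0.559, 0.564, 0.571 and 0.559, and 45S 8221 scored 0.791, 0.809, 0.801 and 0.799.

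Ends were also spread differently along 28S. In 5 of its 47 windows of 100 positions, the mean share of ends was lower by 2-fold or more in the Snord89-set controls, which is 10.6% of the windows. The sets did not overlap in these 5, nor in 23 of the other 42 (59.6% of all 47). The lowest ratio was in the window from 45S 10012 to 10111, with 8217 and 4771 ends per 1000000 in the Snord101-set controls and 2185 and 3131 in the Snord89-set controls (log2 ratio -1.29). A run of 3 such windows covered 45S 10812 to 11111, inside the stretch with no full position. In each of the 5, Snord101-set control A was highest and Snord89-set control A lowest. The count rests on Snord101-set control A: without it 0 windows reached 2-fold, the 5 having log2 ratios of -0.98 to -0.66. It was 10 without Snord101-set control B, 4 without Snord89-set control A and 9 without Snord89-set control B. These windows held 0 full positions, against 62 in the other 42, and 16.8% of their positions were unstable, against 11.2%. The share called was 9.8% there and 15.95% in the others. No window of 18S differed by 2-fold. Hydrolysis time, given in the labels only as 1 to 12 minutes, was not tested as a source of these differences.

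**Figure D4:**
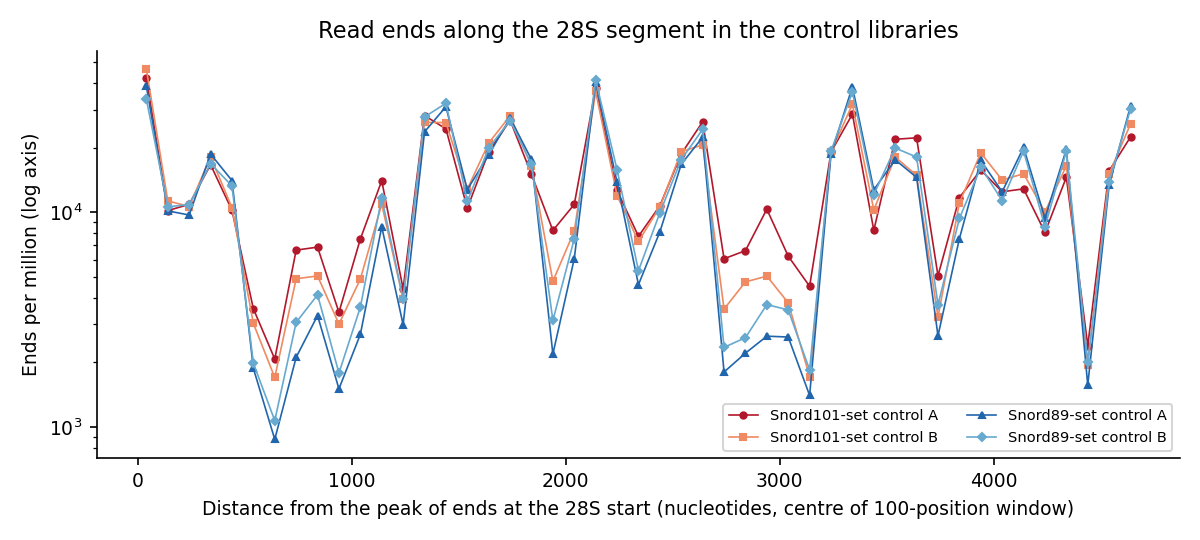
Ends per 1000000 (vertical axis, log scale) in consecutive windows of 100 positions along the 28S segment, by distance in nucleotides of the window's centre from the peak of ends at the 28S start (horizontal axis), 1 line per control library. In 5 windows the mean of the Snord89-set controls is lower by 2-fold or more, as in the one with 8217 and 4771 against 2185 and 3131 ends per 1000000. The sets do not overlap in 28 of the 47 windows.

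Finally, the controls were set beside the knockdown libraries by the mean absolute score difference over the same 1950 positions, which were picked on control scores. Control pairs of 1 set differed by 0.0927 in the Snord101 set and 0.0549 in the Snord89 set. The 4 control pairs across sets differed by 0.114 to 0.154. Controls and knockdowns of 1 set differed by 0.0492 to 0.126, and those of different sets by 0.115 to 0.161. Over these 1950 positions each of the 4 control libraries was nearer to both knockdown libraries of its own set than to either control of the other set. Pairs with Snord101-set control A were wide also within its set, at 0.126 and 0.121 from knockdowns A and B. Without it, controls and knockdowns of 1 set differed by at most 0.0729 and control pairs across sets by 0.114 and 0.116. At the 94 full rRNA positions away from edges, control pairs differed by 0.00249 and 0.00574 within sets and by 0.00711 to 0.00840 across them. The Snord101-set controls differed there from their own knockdowns by 0.0145 to 0.0162, more than from the Snord89-set controls, and this rested on 45S 11405. Without that position, left out after the data were seen, they differed from their own knockdowns by 0.00412 to 0.00585, less than the 0.00714 to 0.00833 between control sets. On the same 93 positions the Snord89-set controls differed from their own knockdowns by 0.00318 to 0.00654.

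**Figure D5:**
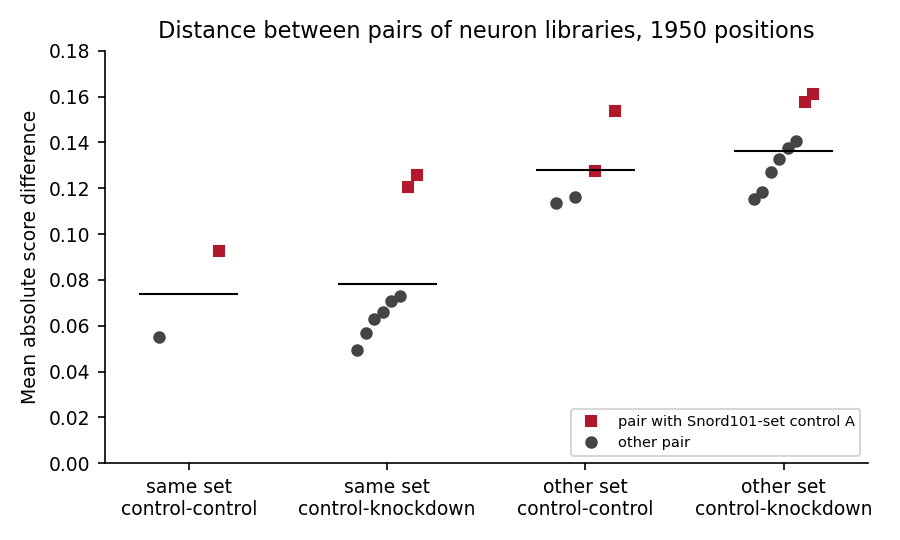
Mean absolute score difference over 1950 positions (vertical axis) for pairs of neuron libraries by set and ASO (horizontal axis); each point is 1 pair, squares are pairs with Snord101-set control A, and bars are means. Control pairs across sets, from 0.114 to 0.154, lie above most control and knockdown pairs of 1 set.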

How the data were processed

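RiboMeth-seq libraries were made from 150 to 250 ng of RNA, per the labels' protocols. The authors deposited whole-number counts of read ends per position of the 45S pre-rRNA, 5′ and 3′ ends summed per the file headers, and a score, a fraction from 0 to 1, for each library. Trim Galore, cutadapt, Bowtie2 and bedtools are named in the submitters' processing notes, and versions, build and filters are not given in the sources used here. The score was recomputed from the deposited counts with weights from 1.0 to 0.5 over 6 positions on each side, and it was equal to the deposited fraction apart from rounding error below 5.3e-16. An rRNA segment is a stretch in which the median of 101 neighbouring positions stayed at 5 or more ends per 1000000. The segments ran from 45S 4008 to 5864 (18S), 6869 to 7041 (5.8S) and 8112 to 12836 (28S), and positions count from 1 as in the tables.

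Library totals on 45S ran from 90051531 to 143176321 ends. The sets were compared by edgeR 4.0.16 in R 4.3.3 (quasi-likelihood test, 2 libraries against 2, log flanking mean as offset, no block, Benjamini-Hochberg over 9216 positions). A positive log2 end ratio means relatively more ends in the Snord89-set controls, and its standard error is its size over the square root of F. The test was checked on simulated data. DESeq2 1.42.0 and limma 3.58.1 were alternatives. The placement of the 18S sites, the edge distance of 12, the strongest-neighbour shares and the 28S windows were chosen after the scores were seen. No pair of control libraries agreed within sampling noise (chi-square per degree of freedom at least 89.3).

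Named positions were the 10 called ones with the largest set difference and no overlap, the 5 highest and 5 lowest full, the 5 steadiest partial and the 10 widest unstable positions, listed sites under 0.75 throughout and the Snord101 knockdown position. Others named in the text were chosen after their values were seen. The members, lists and rules were chosen with earlier results of these data known. The listed sites come from general knowledge in human numbering.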

Additional observations from a re-analysis of the deposited data

How the results depend on the processing

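The 127 full positions numbered 91 to 180 under the other settings and 127 to 128 when each library was left out. Partial and unstable counts (713 and 1110) moved with the lower score limit, to 1197 partial at 0.4 and to 378 and 702 at 0.6. They moved with the median of the flanking counts to 446 and 672, and unstable positions numbered 1859 with a flanking minimum of 10, 664 with 1000, and 733 to 1035 without each library in turn. Non-overlapping positions, 195 higher and 531 lower in the Snord89-set controls, became 318 higher at a difference of 0.05, 90 and 238 at 0.2, and 305 higher with a flanking minimum of 10. The lower ones became 350 with a window of 2 positions, 286 with the flanking median and 327 with a flanking minimum of 1000. Without each library they ranged from 178 to 322 and from 354 to 802. With a flanking minimum of 10 the library distances were 0.104 within and 0.151 across sets. Listed 18S sites, 1 as placed, were 3 at 1 position before, 19 at 1 after and, added after the data were seen, 18 at 2 after. The 5.8S count of 1 became 2 at a score of 0.5 or a window of 2, 0 at 1 position before or after, and 1 to 2 without each library.

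The 1246 set calls (523 with more and 723 with less protection in the Snord89-set controls) became 2494 with TMM (1432 with more), 2467 with DESeq2 (1072 and 1395), 302 with limma on the score (123 and 179) and 317 with a score minimum (98 and 219), which tests fewer positions. With the flanking median 880 had more protection. Without each library the ranges were 0 to 2442, 0 to 907 and 0 to 1535. With the replicate block, edgeR passed 0, in either direction 0 and 0, with 2130 at an unadjusted p under 0.05. The letters are not known to pair libraries across sets, and deviations of same-lettered libraries correlated at -0.509 across positions. Of the 1246, 1017 kept their direction with TMM; 886 did with limma, the other 360 scoring 0 in all 4 libraries and so having no direction in score; 1186 of 1232 tested with a window of 2 and 1190 of 1233 with the flanking median; in each of the other fits all that were tested did. None of the 10 named set positions reversed. All 10 lost the call with the block, 4 with TMM (45S 5860 at log2 -0.39), 4 with a window of 2, 1 with limma and 1 with the flanking median. Their log2 end ratio moved by over 1.5 times at 7 with TMM, 7 with a window of 2 and 5 with the flanking median. The cause of the other changes was not tested. Among unstable positions the median counting error of a score was 0.0523 in the spacers, against 0.0126 over all.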
